A study of Oryza sativa with 24 samples.

Results

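The genes described here encode the factors that copy DNA in the S phase of rice cells: the MCM helicase, the origin recognition complex (ORC), the single-strand binding protein RPA, the clamp loader RFC, the sliding clamp PCNA and the flap endonuclease FEN1A. A probe set (the group of short array probes that reads 1 transcript) was taken when the array annotation gave it 1 rice gene and a RefSeq symbol or synonym of that gene was MCM, ORC, RPA or RFC followed by digits or a letter, or PCNA, CDC6, CDC45, CDT1 or FEN-1. The rule chose 33 of the 57258 probe sets analysed, for 28 genes, among 22436 probe sets with 1 mapped gene. FCA, a flowering-time RNA-binding protein, entered only because its synonym rFCA reads as RFC with a letter, and it was set aside, which left 32 probe sets for 27 genes. They comprise 6 for MCM2 to MCM7, 5 for MCM8 and MCM9, 6 for ORC1 to ORC5, 7 for RPA, 5 for RFC1 to RFC5, 1 for PCNA and 2 for FEN1A. ORC6 and genes named CDC6, CDC45 or CDT1 were not analysed here, and the gene called ORC5 below also carries OsORC1 among its synonyms.

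DNA replication begins where ORC sits on the chromosome and loads the ring of MCM2 to MCM7, which later unwinds the helix. RPA coats the single strands, RFC opens PCNA and sets it around the DNA as a tether for the polymerases, and FEN1 trims the flaps between lagging-strand fragments. In a pollen grain the microspore divides into a vegetative and a generative cell, and the generative cell divides again into the sperm cells, so that the lineage passes through successive rounds of replication.

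Transcripts were measured on 24 Affymetrix Rice Genome Arrays, 3 for each of 8 groups of *Oryza sativa* ssp. *japonica*. Pollen was followed from uninucleate microspores (UNMs) released from the tetrad, through pollen with 2 cells (bicellular pollen, BCP) and with 3 cells but not yet ripe (tricellular pollen, TCP), to mature pollen grains (MPGs) shaken from flowering panicles and germinated pollen grains (GPGs) kept for about 10 min in germination medium. Callus induced from seed for about 1 month on 2 mg/l of 2,4-D, an auxin that keeps cells dividing, root of 2-week seedlings and leaf were the sporophytic tissues. The labels describe the leaf as flag leaf at grain filling, at 110 to 120 days, whereas the methods of the study describe leaves of 2-week seedlings. According to the labels the BCP preparation held grains from before and from after a pollen mitosis. Each group is a preparation of many cells, and in such samples fewer cells of a type and less RNA per cell cannot be told apart.

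The values are MAS5 signals on a linear scale, which the authors scaled to the same mean on every array. Leaf photosynthesis markers (7 probe sets of RBCS and CAB2R genes) summed to 78867 to 104575 in leaf and to at most 1981 in any array of the other groups, LSI1, a root silicon channel, reached 9144 to 16933 in root and at most 865 elsewhere, and the pollen markers EXPB9, EXPB10 and ADF9 summed to at least 12107 in every pollen array and to at most 391 in callus, root and leaf. In UNMs EXPB9 carried the pollen sum, with a mean of 11955, while EXPB10 and ADF9 averaged 407 and 402. RBCS probe sets with means of 41.1 and 36.6 in leaf added little to the leaf sum. The MPG and GPG arrays stood apart. Their replicates had Pearson r of 0.846 to 0.867 (MPGs) and 0.826 to 0.881 (GPGs) on log2(signal + 50), where the lowest r of another group was 0.9265 (TCP). Their bacterial and phage hybridisation controls had a geometric mean of 20734 ± 4928 (SD, n = 6) against 3533 ± 1386 (n = 18) on the other arrays, and their median signal was 165 ± 18.5 against 68.6 ± 14.9. Comparisons that involve MPGs or GPGs therefore depend on how the arrays are scaled. Their counts are given below under each of 5 scalings, and some members also by rank within the array. The poly-A controls also differed within groups, with geometric means of 1077, 2221 and 14199 in MPG arrays and 329, 500 and 912 in BCP arrays. Scaling to them carries this spread into the test. Probe sets entered the test when they had a signal of at least 100 in 3 or more arrays. Of the 32 members 30 did, and 1 probe set each of MCM8 and MCM9 did not. Below, a transcript rose or fell when limma, fitted on log2(signal + 50) over 47589 probe sets, gave an adjusted p (Benjamini-Hochberg) under 0.05 together with at least a 2-fold change, and all adjusted p-values are from that fit. Log2 changes are on this offset scale, which understates the changes of dim probe sets.

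**Figure D1:**
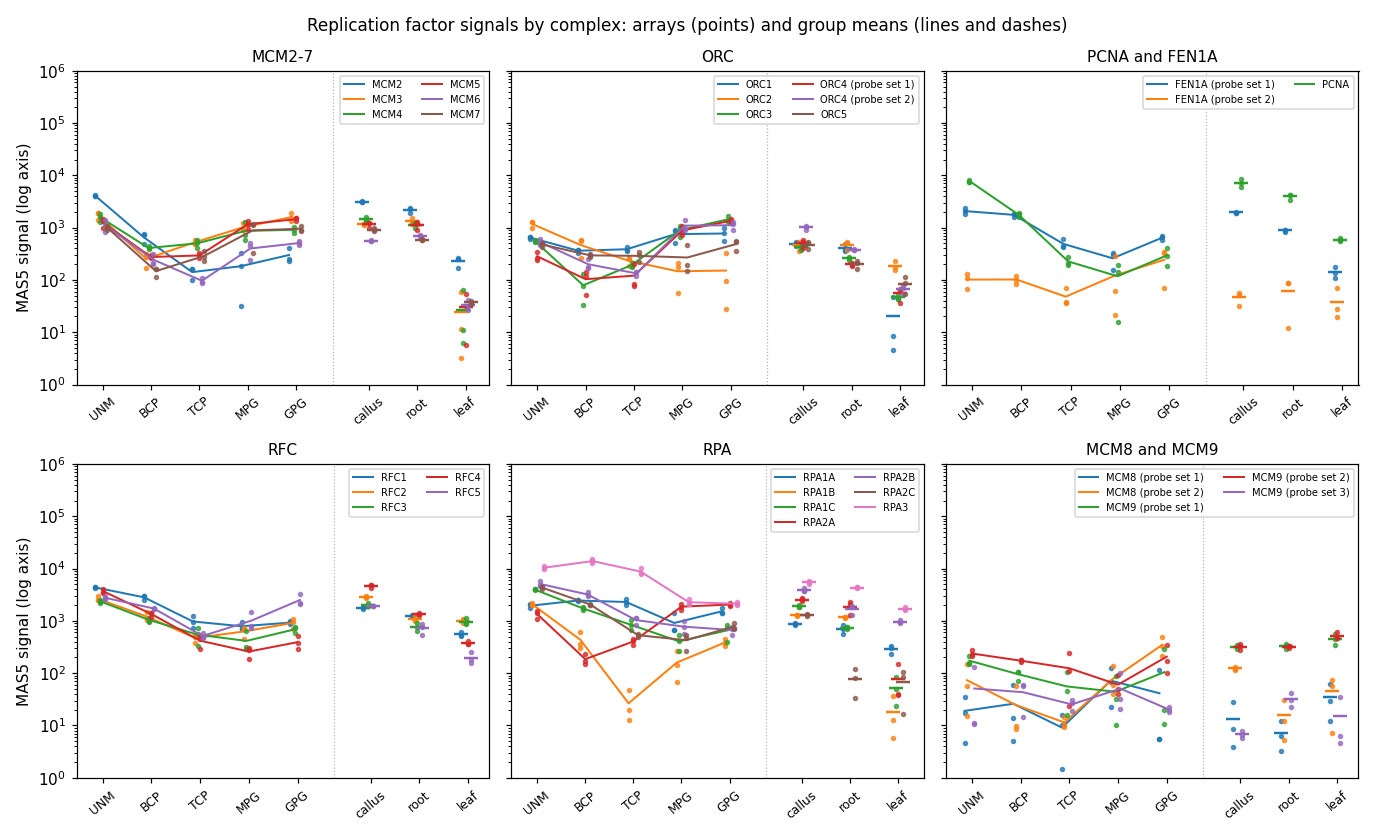
MAS5 signal (log axis) of the 32 replication factor probe sets in 8 groups, 1 panel per complex, with 1 point per array and lines (pollen) or dashes (callus, root, leaf) at the mean of 3 arrays. All MCM2 to MCM7 means are lower in BCP than in UNMs and lowest or near lowest in leaf, and by the deposited scaling MCM3 to MCM7, ORC3 and ORC4 have higher means in MPGs than in TCP while PCNA has a lower one. Over 5 scalings the change of MPGs against TCP is positive under 2 for MCM3 and MCM4, 3 for MCM7, 4 for MCM5 and 5 for MCM6.

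PCNA, the sliding clamp, fell at both early steps of pollen development. The 3 UNM arrays read 8322, 7564 and 7432, the BCP arrays 1865, 1564 and 1823, and the TCP arrays 192, 272 and 215. Mature grains (MPGs) read 15.4, 193 and 144, and germinated grains (GPGs) 188, 282 and 414. Callus read 5976, 8512 and 7143, root 4257, 4289 and 3305, and leaf 585, 559 and 633. Ordered by mean, the groups ran from UNMs and callus, whose arrays overlapped, through root, BCP and leaf, none of which overlapped a neighbour, to GPGs, TCP and MPGs, each of which overlapped the next. PCNA fell by 2.12 on the log2 scale in BCP against UNMs (SE 0.34, adjusted p = 9.25e-05) and by a further 2.71 in TCP against BCP (SE 0.34, adjusted p = 2.42e-06). TCP against UNMs thus differed by −4.83 (SE 0.34, adjusted p = 1.72e-10). By rank within its array, PCNA stood on average at percentile 97.7 of all probe sets in UNMs, and at 90.2, 70.8, 35.1 and 64.4 at the later stages from BCP to GPGs. The sporophytic values were 97.8 (callus), 95.5 (root) and 79.3 (leaf).

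Most of the replication factors tested were lower in bicellular pollen than in microspores. Of the 30 members tested 18 fell in BCP against UNMs and 0 rose. Of all probe sets tested 14.3% changed, 8.19% down and 6.11% up. At an unadjusted p under 0.05 in limma, 23 members were lower and 1 was higher. Here and below, counts at this looser limit have no share of all probe sets beside them. The percentages are for the adjusted p with 2-fold and are not a background for them. The median log2 change of the members was −1.15, and that of all probe sets tested −0.01. For 25 of the 32 members every BCP array was below every UNM array, as it was for 18.6% of all 57258 probe sets. RPA1A and RPA3 were the exceptions in the other direction, with every BCP array above every UNM array but neither past the test. Over the 5 scalings 10 members fell under every one, namely all 6 of MCM2 to MCM7, PCNA, ORC3, RPA1B and RPA2A.

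The MCM2 to MCM7 helicase subunits fell together at that step, 6 of 6, by 1.81 to 2.57 on the log2 scale. MCM3 showed the largest fall, with 313, 171 and 276 in BCP against 1886, 1372 and 1944 in UNMs (log2 change −2.57, SE 0.26, adjusted p = 2.62e-07). MCM2 was almost equal to it at 714, 487 and 759 in BCP and 4022, 3970 and 4136 in UNMs (−2.56, SE 0.37, adjusted p = 2.37e-05). No BCP array of any of the 6 reached the lowest UNM array. Among the ORC probe sets 4 of 6 fell, for ORC2, ORC3 and both probe sets of ORC4, while ORC1 changed by −0.76 and ORC5 by −0.61 and neither reached 2-fold. ORC3 fell most, to 32.9, 75.8 and 128 in BCP against 531, 575 and 562 in UNMs (−2.30, SE 0.24, adjusted p = 2.86e-07).

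The factors that act at the fork fell less evenly. RFC2, RFC3 and RFC4 fell, 3 of 5 clamp-loader subunits. RFC4 fell most, with 1205, 1404 and 1441 in BCP against 3434, 4132 and 3634 in UNMs (−1.43, SE 0.23, adjusted p = 7.38e-05), and under poly-A control scaling its adjusted p was 0.127. Of the 7 RPA genes RPA1B, RPA1C, RPA2A and RPA2C fell. RPA2A fell most, with 168, 153 and 236 in BCP and 1554, 1069 and 1423 in UNMs (−2.57, SE 0.28, adjusted p = 7e-07). FEN1A, whose brighter probe set read 1612, 1815 and 1841 in BCP and 1832, 2356 and 2041 in UNMs, changed by −0.23 (SE 0.23, adjusted p = 0.652). The other FEN1A probe set was dim, with group means of 38.6 to 244, and passed the test in no comparison.

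The sum of markers of the tapetum, the anther layer that nourishes the microspores, fell at the same step, though not every marker did. Over 6 probe sets for 6 genes the sum was 1490 to 1926 in BCP arrays and 15803 to 17568 in UNM arrays, and 177 to 288 in callus arrays. RTS, C6 and CP1 carried the sum in UNMs, with mean signals of 12695, 2442 and 1093, while TDR, CYP703A3 and PTC1 were at 86.2, 61.3 and 123. In BCP RTS, C6 and CP1 averaged 1107, 156 and 190. TDR was at 84.0 and PTC1 at 66.7 there, and CYP703A3 went the other way, to 151. The leaf photosynthesis sum fell as well, to 450 to 683 in BCP arrays from 1498 to 1917 in UNM arrays. CAB2R carried that fall, with probe set means of 171 and 25.4 in BCP and 1272 and 182.5 in UNMs. The RBCS probe sets went both ways, with means of 28.3, 156, 81.7, 48.1 and 30.2 in BCP against 52.1, 195, 32.3, 15.8 and 14.3 in UNMs. The part of either list in the fall of the replication factors was not tested.

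**Figure D2:**
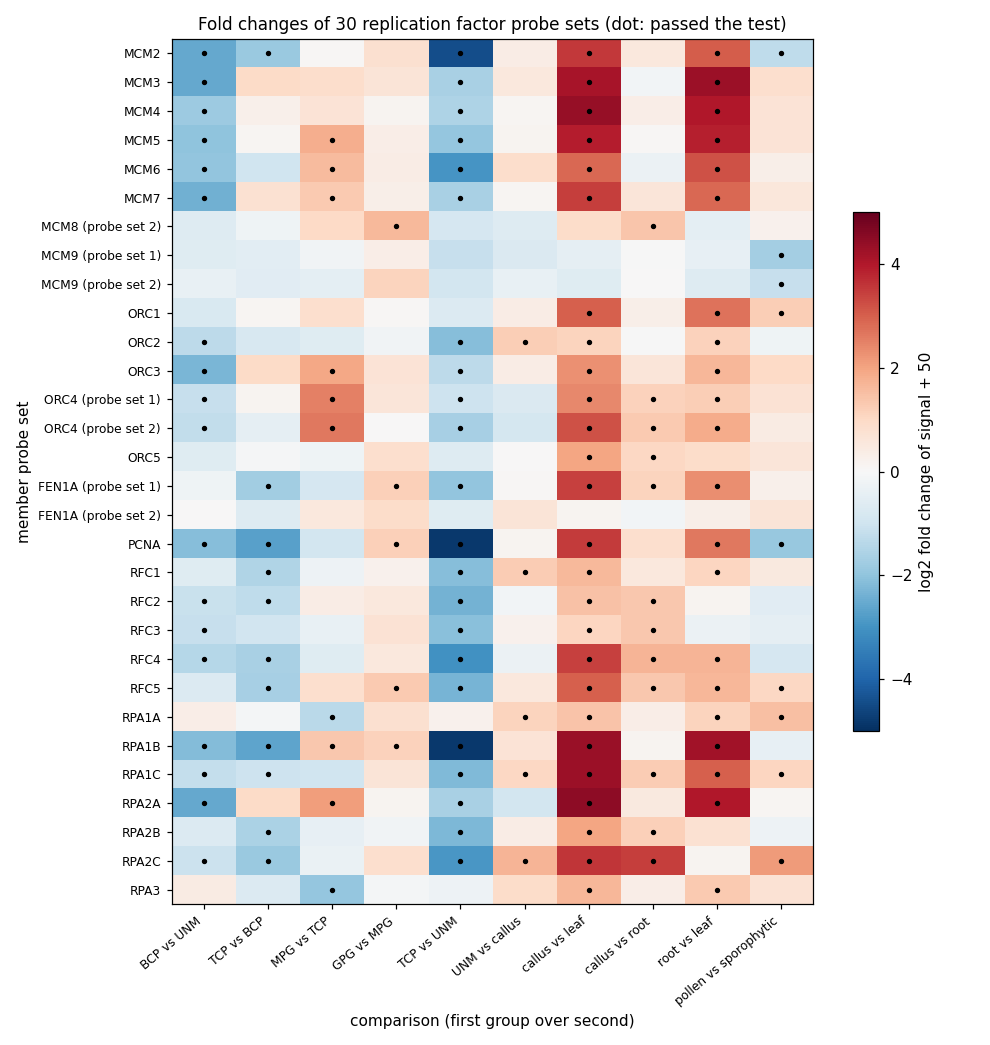
Log2 fold change (colour, first group over second) of the 30 member probe sets tested, in rows by complex, for 10 comparisons in columns, with a dot where limma gave an adjusted p under 0.05 and at least 2-fold. The columns of BCP against UNM and TCP against UNM hold 18 and 22 falls and no rise, callus against leaf and root against leaf hold 26 and 21 rises and no fall, and the MPG against TCP column (8 rises, 2 falls) changes to 0 rises and 14 falls with hybridisation control scaling.

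The next step was from BCP to TCP. Of 30 members 11 fell in TCP against BCP and 0 rose, where 23.1% of all probe sets tested changed, 12.9% down and 10.2% up. At an unadjusted p under 0.05 in limma 14 were lower and 4 higher. The 11 were PCNA, the brighter FEN1A probe set, RFC1, RFC2, RFC4, RFC5, RPA1B, RPA1C, RPA2B, RPA2C and, alone among the MCM and ORC probe sets, MCM2. MCM2 was at 162, 102 and 159 in TCP against 714, 487 and 759 in BCP (log2 change −1.87, SE 0.37, adjusted p = 0.00045). RFC5 showed the largest change of its complex, with 467, 484 and 591 in TCP and 1769, 1708 and 1699 in BCP (−1.66, SE 0.26, adjusted p = 2.81e-05). RPA1B read 19.8, 12.9 and 46.9 in TCP and 369, 307 and 623 in BCP (−2.63, SE 0.30, adjusted p = 5.33e-07). The 5 other helicase subunits had log2 changes from −0.99 to 0.94, and the 6 ORC probe sets from −0.81 to 0.98, none of which passed. The ratio of 3′ to 5′ signal of a GAPDH control, a sign of RNA quality, was 4.78 to 8.16 in TCP arrays and 2.42 to 3.57 in BCP arrays, while that of another GAPDH control overlapped between them. The first ratio was 4.95 to 16.3 in MPG arrays and 3.64 to 17.4 in GPG arrays, both with overlap to TCP, and 3.02 to 4.91 in UNM arrays. Its part in these changes and in those below was not tested.

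Over both steps, TCP against UNMs, 22 of 30 members fell and 0 rose, where 32.6% of all probe sets tested changed, 18.1% down and 14.5% up. At an unadjusted p under 0.05 in limma 27 were lower and 0 higher, and the same 22 fell under each of the 5 scalings. They included 6 of 6 MCM2 to MCM7, 5 of 5 RFC, 5 of 7 RPA, 4 of 6 ORC, PCNA and FEN1A. MCM2 had the largest fall of the helicase (−4.44, SE 0.37, adjusted p = 2.2e-09), ORC2 of the ORC (−2.12, SE 0.43, adjusted p = 0.000348), RFC4 of the clamp loader (−3.04, SE 0.23, adjusted p = 3.96e-10) and RPA1B of the RPA genes (−4.82, SE 0.30, adjusted p = 1.75e-11). RPA1A (0.23) and RPA3 (−0.25) did not pass, and their levels are given with those of their paralogues below.

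In mature pollen the count of members that changed was near that of all probe sets. Of 30 members 8 rose in MPGs against TCP and 2 fell, where 38.9% of all probe sets tested changed, 27% up and 11.9% down. The 8 were MCM5, MCM6, MCM7, ORC3, both probe sets of ORC4, RPA1B and RPA2A, and the 2 that fell were RPA1A and RPA3. These directions depend on the scaling: with each array scaled to its hybridisation controls 0 rose and 14 fell, to its poly-A controls 0 and 12, to the same median 4 and 11, and after quantile normalization 7 and 8. Of all probe sets tested 1.34% rose and 27.9% fell with the hybridisation controls, 0.416% and 22.9% with the poly-A controls, 6.29% and 20.5% with the same median, and 13.0% and 15.7% after quantile normalization. The median log2 change of all probe sets tested moved with them, from 0.55 as deposited to 0.10 (quantile), −0.05 (same median), −0.44 (hybridisation controls) and −0.54 (poly-A controls). Set against that median, 9 members lay above it under every scaling and 15 below it under every scaling.

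Above the median of all probe sets in each scaling were MCM5, MCM6, MCM7, the MCM8 probe set tested, ORC3, both probe sets of ORC4, RPA1B and RPA2A. ORC4, read by its probe set with the larger change, was at 997, 1387 and 894 in MPGs and 140, 121 and 139 in TCP, with no overlap (log2 change 2.62, SE 0.21, adjusted p = 3.93e-09). Its log2 change was positive under all 5 scalings, between 0.88 and 2.96, and it passed under 3 of the 5, with an adjusted p of 0.357 under poly-A controls. MCM5 was at 1366, 940 and 1193 in MPGs and 297, 322 and 263 in TCP (1.81, SE 0.24, adjusted p = 2.91e-06), with 0.19 under hybridisation control scaling and −0.01 under poly-A control scaling. RPA2A was at 1643, 2147 and 1827 in MPGs and 414, 452 and 347 in TCP (2.08, SE 0.28, adjusted p = 5.08e-06), with 0.40 and 0.17 under those scalings. RPA1B, with 141, 69.2 and 266 in MPGs against 19.8, 12.9 and 46.9 in TCP (1.36, SE 0.30, adjusted p = 0.000927), stayed positive but passed under no other scaling.

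Below the median of all probe sets in each scaling were PCNA, MCM2, ORC2, ORC5, the brighter FEN1A probe set, RFC1, RFC3, RFC4, RPA1A, RPA1C, RPA2B, RPA2C, RPA3 and both MCM9 probe sets tested. RPA1A and RPA3 fell under all 5 scalings. RPA3 was at 2133, 2128 and 2581 in MPGs and 10075, 7812 and 8405 in TCP (−1.92, SE 0.18, adjusted p = 2.3e-08), and RPA1A at 676, 659 and 1401 in MPGs and 2036, 2280 and 2574 in TCP (−1.37, SE 0.24, adjusted p = 0.000132). MCM2 was at 182, 32.0 and 334 in MPGs and 162, 102 and 159 in TCP, so that its arrays overlapped, and its log2 change ran from −1.23 to 0.04 over the scalings.

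**Figure D3:**
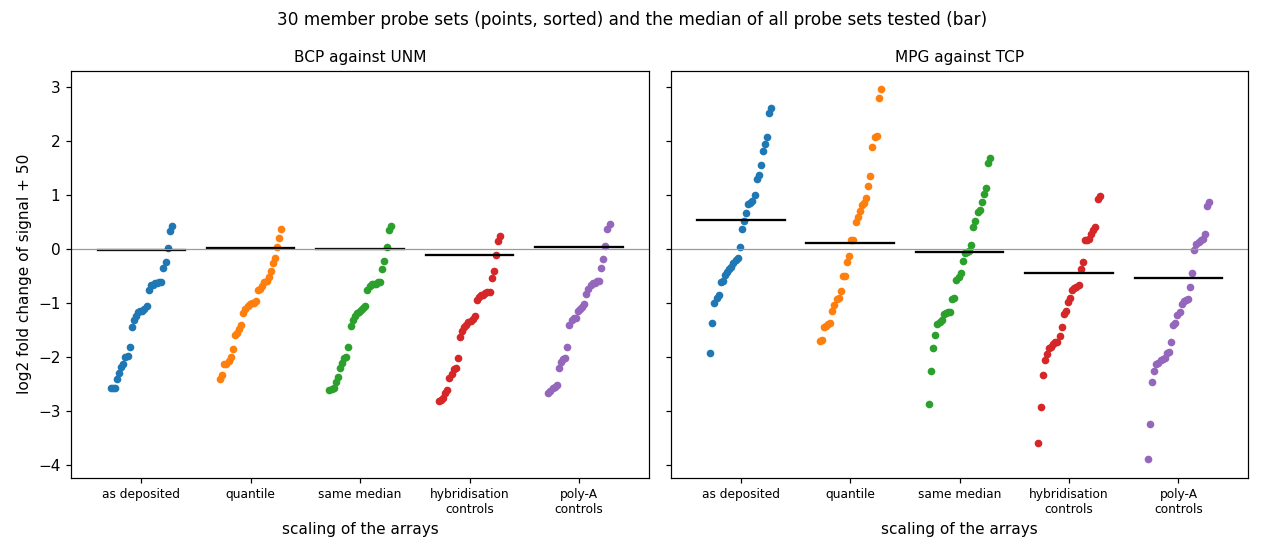
Log2 fold change of the 30 member probe sets (points, sorted within each scaling) for BCP against UNM and for MPG against TCP under 5 scalings of the arrays, with a bar at the median of all probe sets tested. For BCP against UNM points and bar shift little, while for MPG against TCP points and bar shift down together from a bar at 0.55 as deposited to −0.54 with poly-A controls.

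Ranks within an array do not depend on its scaling, but they do depend on the other transcripts present. The study reports fewer expressed genes in MPGs and GPGs than in UNMs, so a higher rank need not be a higher level. Over the 5 pollen stages from UNMs to GPGs, MCM5 stood at mean percentiles of 87.0, 73.5, 75.3, 89.9 and 91.4. RPA2A stood at 87.5, 68.3, 79.2, 93.0 and 93.3. ORC3 stood at 79.7 in UNMs, 86.9 in MPGs and 91.4 in GPGs, and the ORC4 probe set above at 79.2, 89.3 and 89.4. These genes ranked higher in mature and germinated pollen than in microspores. MCM2 in contrast stood at 95.2, 81.8, 60.7, 45.4 and 66.0, ORC2 at 86.4, 78.0, 71.1, 45.0 and 40.6, and RFC4 at 94.8, 88.2, 78.8, 61.2 and 73.5. The log2 ratio of MCM5 to MCM2 signal within an array, which shows unequal change only, was −1.70 ± 0.29 at the microspore stage, −1.23 ± 0.43 in BCP, 1.09 ± 0.50 in TCP and 2.33 ± 0.43 in germinated grains (SD, n = 3 each). Callus had −1.46 ± 0.16 and root −0.98 ± 0.10. No ratio is given for MPGs and leaf, where MCM2 or MCM5 was under 100 in at least 1 array.

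**Figure D4:**
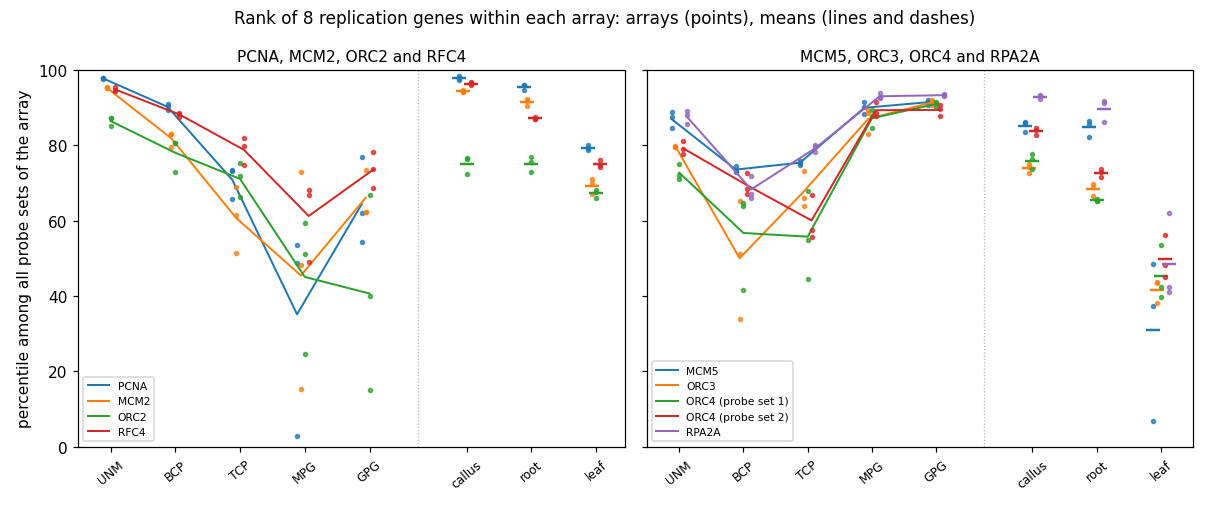
Percentile of a probe set among all 57258 probe sets of its array (vertical axis) in 8 groups, with 1 point per array and lines or dashes at the mean of 3, for genes that ranked low in mature pollen (left) and genes that ranked high there (right). PCNA has a mean of 35.1 and MCM2 of 45.4 in MPGs, where MCM5 has 89.9 and RPA2A 93.0, and the right-hand genes have their lowest ranks in leaf.

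On germination fewer probe sets passed than at the step before, among the members and among all probe sets tested. Of 30 members 5 rose in GPGs against MPGs and 0 fell, where 7.67% of all probe sets tested changed, 3% up and 4.67% down. At an unadjusted p under 0.05 in limma 17 were higher and 0 lower. The 5 were PCNA, the brighter FEN1A probe set, RFC5, RPA1B and a dim MCM8 probe set. RFC5 was at 2171, 3219 and 2149 in GPGs and 728, 800 and 1502 in MPGs, with no overlap (log2 change 1.32, SE 0.26, adjusted p = 0.00245). MCM8 was at 334, 486 and 211 in GPGs and 40.3, 58.7 and 137 in MPGs (1.62, SE 0.38, adjusted p = 0.0102), and RPA1B at 371, 458 and 325 in GPGs and 141, 69.2 and 266 in MPGs (1.16, SE 0.30, adjusted p = 0.017). That MCM8 probe set is of a kind that can match several transcripts. The other MCM8 probe set missed the filter and did not rise, with its highest group mean, 72.1, in MPGs. FEN1A was at 586, 683 and 653 in GPGs and 332, 152 and 294 in MPGs (1.21, SE 0.23, adjusted p = 0.00209). PCNA, whose arrays overlapped, changed by 1.19 (SE 0.34, adjusted p = 0.0321), and by 0.61 without MPG replicate 1, which read 15.4 (adjusted p = 0.144). It did not pass either without GPG replicate 2 (adjusted p = 0.0604) or 3 (adjusted p = 0.105), and RPA1B did not without MPG replicate 2 (adjusted p = 0.0805) or GPG replicate 2 (adjusted p = 0.0542). After quantile normalization 7 members rose and 0 fell, beside 3.77% and 4.37% of all probe sets tested. With the same median 3 rose and 0 fell, beside 1.17% and 1.18%. The count was 0 with the hybridisation controls, where 0.0883% of all probe sets tested rose and 0.364% fell. With the poly-A controls it was also 0, where 0.0042% rose and 0.0021% fell. So few probe sets passed there that a count of 0 says little about the members. The count was 0 as well when only the arrays of MPGs and GPGs entered the fit, for which no share of all probe sets is given. Leaving out 1 array moved it between 3 (without MPG replicate 2) and 11 (without MPG replicate 3). The log2 change was positive under all 5 scalings for 24 of the 30 members, a count that was not made over all probe sets. Set against the median of all probe sets tested, 27 members lay above it under every scaling and 1 below it. The scalings share the same arrays, so their results are not independent of each other.

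Nearly all tested replication factors were higher in callus than in leaf. Of 30 members 26 rose in callus against leaf and 0 fell, where 30.4% of all probe sets tested changed, 17% up and 13.4% down, with 27 higher and 0 lower at an unadjusted p under 0.05 in limma, and 25 rose under every scaling. Every complex of the fork and of the origin took part, with 6 of 6 MCM2 to MCM7, 6 of 6 ORC, 7 of 7 RPA, 5 of 5 RFC, PCNA and the brighter FEN1A probe set. MCM4 had the largest difference of the helicase, with 1407, 1380 and 1571 in callus and 64.1, 6.2 and 10.9 in leaf (log2 change 4.36, SE 0.28, adjusted p = 4.73e-11). RPA2A had that of the RPA genes, with 2599, 2714 and 2372 in callus and 151, 39.0 and 40.3 in leaf (4.47, SE 0.28, adjusted p = 4.31e-11). ORC4 differed by 3.18 (SE 0.21, adjusted p = 9.65e-11), RFC4 by 3.42 (SE 0.23, adjusted p = 9.11e-11) and PCNA by 3.49 (SE 0.34, adjusted p = 3.39e-08). Leaf signals of MCM3 to MCM7 were 3.2 to 64.1 in every array, below the 100 used as the filter. The GAPDH control ratio of 3′ to 5′ signal was 1.41 to 1.61 in callus arrays and 3.67 to 5.96 in leaf arrays, with 1.78 to 3.76 in root, and the other control again overlapped. Its part was not tested.

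Root has a dividing tip and a differentiated remainder. In root against leaf 21 of 30 members rose and 0 fell, where 27% of all probe sets tested changed, 15.4% up and 11.6% down, with 23 higher and 0 lower at an unadjusted p under 0.05 in limma. All 6 of MCM2 to MCM7 rose, led by MCM3 with 1239, 1557 and 1157 in root and 58.8, 3.2 and 11.4 in leaf (4.26, SE 0.26, adjusted p = 3.99e-11). RPA1B rose to 1173, 1135 and 1196 in root, against 36.3, 12.9 and 5.7 in leaf (4.18, SE 0.30, adjusted p = 3.28e-10), and ORC1 to 378, 478 and 353, against 48.1, 4.6 and 8.4 (2.73, SE 0.25, adjusted p = 1.64e-08). RFC4 rose by 1.71 (SE 0.23, adjusted p = 3.22e-06) and PCNA by 2.63 (SE 0.34, adjusted p = 2.45e-06). RFC2 (0.13), RFC3 (−0.29), RPA2B (0.76), RPA2C (0.14) and ORC5 (0.92) were among those that did not pass.

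In callus against root 12 of 30 members rose and 0 fell, where 21.4% of all probe sets tested changed, 10.5% up and 10.9% down, with 15 higher and 0 lower at an unadjusted p under 0.05 in limma. None of MCM2 to MCM7 passed, and at an unadjusted p under 0.05 also 0 of 6 did, with log2 changes of −0.30 to 0.59. RFC2, RFC3, RFC4 and RFC5 rose, as did RPA1C, RPA2B, RPA2C, both ORC4 probe sets, ORC5, FEN1A and an MCM8 probe set. RFC4 was at 4183, 4756 and 4846 in callus and 1314, 1394 and 1382 in root (1.71, SE 0.23, adjusted p = 4.89e-06). ORC4 was at 1094, 913 and 1041 in callus and 377, 395 and 369 in root (1.31, SE 0.21, adjusted p = 5.89e-05), and did not pass with poly-A control scaling (adjusted p = 0.0642). PCNA differed by 0.85 (SE 0.34, adjusted p = 0.0756).

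Microspores, which are about to divide, were also set against callus. In UNMs against callus 5 of 30 rose and 0 fell, where 26.6% of all probe sets tested changed, 11.8% up and 14.8% down, with 8 higher and 3 lower at an unadjusted p under 0.05 in limma. The 5 were ORC2, RFC1, RPA1A, RPA1C and RPA2C. RPA2C was at 4430, 4421 and 4160 in UNMs and 1330, 1241 and 1300 in callus (log2 change 1.71, SE 0.30, adjusted p = 8.13e-05), the 1 member that passed under all 5 scalings, and RFC1 at 4474, 4393 and 4209 in UNMs and 1867, 1657 and 1870 in callus (1.26, SE 0.20, adjusted p = 3.22e-05). ORC2 was at 964, 1271 and 1278 in UNMs and 360, 526 and 518 in callus (1.24, SE 0.43, adjusted p = 0.0291), and it did not pass without callus replicate 1 or 3 or without UNM replicate 2 or 3 (adjusted p from 0.0509 to 0.115). PCNA differed by 0.12 (SE 0.34, adjusted p = 0.878), a value whose sign changed with the scaling. With hybridisation control scaling 1 member was higher and 5 were lower, beside 9.21% and 22.5% of all probe sets tested. Averaged over the 5 pollen stages against the 3 sporophytic tissues, 5 members were higher and 4 lower, where 41.4% of all probe sets tested changed, 20.8% up and 20.7% down. The 5 were ORC1 (1.23), RFC5 (1.04), RPA1A, RPA1C and RPA2C, and the 4 were MCM2 (−1.28), both MCM9 probe sets (−1.70 and −1.17) and PCNA, but with hybridisation control scaling 0 were higher and 12 lower, beside 5.44% and 41.3% of all probe sets tested. The share of members that changed was thus no larger than that of all probe sets, as deposited or so scaled. PCNA was lower in pollen by this measure (−1.88, SE 0.18, adjusted p = 4.95e-09) and RPA2C higher (2.13, SE 0.15, adjusted p = 5.57e-11), and without the MPG and GPG arrays the counts were 5 and 2, with −0.75 for PCNA and 2.73 for RPA2C.

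Paralogues of RPA followed different courses. RPA is a trimer, and rice has several genes for its large subunit (RPA1A, RPA1B, RPA1C) and middle subunit (RPA2A, RPA2B, RPA2C) and a small-subunit gene, RPA3. RPA1A read 1801, 1972 and 2068 in UNMs, 2374, 2518 and 2468 in BCP and 2036, 2280 and 2574 in TCP, the stages over which RPA1B went down to a mean of 26.5. RPA1C fell at both steps, with means of 3967, 1734 and 841 over those stages. RPA3 was at 10980, 10265 and 9963 in UNMs, 13706, 15044 and 13025 in BCP and 10075, 7812 and 8405 in TCP.

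Among the middle-subunit genes RPA2C was set apart by root, where it read 79.5, 121 and 34.1, against 1330, 1241 and 1300 in callus (log2 change of callus against root 3.44, SE 0.30, adjusted p = 1.04e-08). RPA2A read 2083, 2249 and 1282 in the same root arrays and 2599, 2714 and 2372 in callus, and did not pass (0.48). RPA2B declined over the stages, with means of 5113 in UNMs, 3196 in BCP and 1038 in TCP, and kept 971 in leaf.

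**Figure D5:**
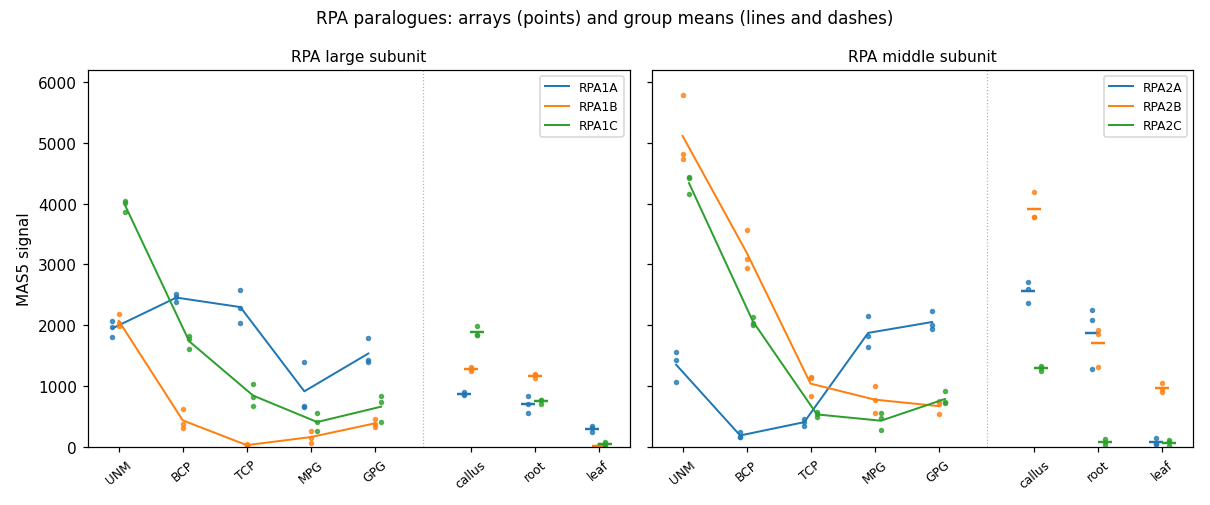
MAS5 signal of the large-subunit genes (left) and middle-subunit genes (right) of RPA in 8 groups, with 1 point per array and lines or dashes at the mean of 3. RPA1A stays between 1801 and 2574 from UNM to TCP while RPA1B drops to a mean of 26.5 in TCP, and RPA2C has 34.1 to 121 in root, against 1241 to 1330 in callus.

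MCM8 and MCM9 are helicase relatives that act in recombination and repair in other organisms. The MCM8 probe set tested, of a kind that can match several transcripts, rose in GPGs against MPGs, as given above. It also rose in callus against root (1.41, SE 0.38, adjusted p = 0.00814). Both tested MCM9 probe sets had their highest mean in leaf, 456 and 524, and neither passed in any step between neighbouring stages. The other probe sets of these genes were dim, with group means of 6.8 to 72.1 for the 2 that missed the filter. Across the 30 members tested the highest mean was in UNMs for 15, in GPGs for 8, in callus for 3, in BCP for 2 and in leaf for 2, and the lowest was in leaf for 20. The counts for GPGs rest on the deposited scaling. The same counts were not made over all probe sets, so whether they are particular to these genes was not tested. FCA, set aside above, averaged 816, 465 and 248 from UNMs to TCP.

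Other genes of replication and of new chromatin were taken by name: DNA polymerase delta (POLD1, POLD2), chromatin assembly factor (FAS2, MSI1), the maintenance methyltransferases MET1-1 and MET1-2, the retinoblastoma-related repressors RBR1 and RBR2, FEN1B and 5 histone H2B genes, 17 probe sets in all. In BCP against UNMs 11 of them fell and 0 rose, beside 8.19% down and 6.11% up among all probe sets tested, with 13 lower and 0 higher at an unadjusted p under 0.05 in limma. RBR1 fell to 90.0, 3.0 and 105 in BCP, against 991, 1065 and 1124 in UNMs (−3.40, SE 0.51, adjusted p = 4.16e-05), MET1-2 by 2.21 (SE 0.26, adjusted p = 1.98e-06), FAS2 by 1.67 (SE 0.19, adjusted p = 1.31e-06) and POLD1 by 1.41 (SE 0.25, adjusted p = 0.000201). H2B.10 fell by 1.99 (SE 0.24, adjusted p = 2.64e-06). FEN1B fell by 1.45 at one probe set (SE 0.36, adjusted p = 0.00514), while the other changed by −0.56 and did not pass (adjusted p = 0.322). In callus against leaf 13 rose and 0 fell, beside 17% up and 13.4% down among all probe sets tested, with 14 higher and 0 lower at an unadjusted p under 0.05 in limma.

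The genes outside the replication set whose signals followed PCNA most closely, among 3077 probe sets with an informative gene name, were PRMT10 (r = 0.964), eIF-4A-1 (0.963), GLR3.1 (0.958), PRMT1 (0.947) and RPN7 (0.944). The r is Pearson's over 24 arrays, which are 8 groups of 3 and share their tissue contrasts, and is given as a description. Among the members RFC4 (0.948) and MCM2 (0.926) came closest to PCNA, whereas MCM5 had 0.228, ORC3 −0.135 and RPA1A 0.0361.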

How the data were processed

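The deposited signal intensities of 24 arrays were used, made by the authors in GCOS with the MAS5 algorithm (per the labels) and brought to an overall intensity of 500 on each array (per the methods of the study). Detection calls, probe-level files and promoter or protein sequences were not used here, and no genome build is given in the sources used here. Of 57381 probe sets 123 controls were left out. Gene names came from the RefSeq gene table through the array annotation. Members and gene lists were chosen with earlier results of these data known. The test was limma 3.58.1 (R 4.3.3) applied to log2(signal + 50), with 1 mean per group over all 24 arrays, after a filter of 100 in 3 arrays, with Benjamini-Hochberg adjustment over 47589 probe sets. The fit was tested on simulated data. Every member may be named, and full statistics go to PCNA and to the largest rise and fall per complex and comparison. Of the other genes, those given with a change or an r have the largest change of their list in BCP against UNM, or the highest r with PCNA. The lists were rewritten by symbol after the gene table was seen. Alternatives were 2 other offsets and filters, 4 scalings, a replicate block, an intensity trend, fits on fewer arrays, no fold limit, 1 probe set per gene, no probe sets that can match several transcripts, and each array left out. Including FCA, and leaving out the MPG and GPG arrays, were added after seeing the data. The study describes the 3 arrays of a group as biological replicates. Their number limits the precision. Tables and plots were made with Python 3.11.15, pandas 2.3.3 and matplotlib 3.10.9.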

Additional observations from a re-analysis of the deposited data

How the results depend on the processing

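Of the 10 counts of members that rose or fell, those for TCP against UNM, callus against leaf and root against leaf stayed within 1.5 times and in direction under every alternative run. With poly-A control scaling the count was 10 in BCP against UNM (0 higher), where 2.75% of all probe sets tested rose and 4.03% fell. It was 6 in callus against root, beside 7.71% and 6.55%, and 3 in UNM against callus, beside 9.78% and 10.2%. In MPG against TCP the majority turned to falls: 14 (hybridisation controls), 12 (poly-A controls), 15 (same median, 4 higher and 11 lower) and 15 (quantile, 7 and 8). In GPG against MPG the count was 0 with hybridisation or poly-A controls or only the arrays compared, and 3 with the same median or an offset of 100. Of all probe sets 0.0883% rose and 0.364% fell there with hybridisation controls, and 0.0042% and 0.0021% with poly-A controls. UNM against callus had 6 (1 higher, 5 lower) with hybridisation controls, beside 9.21% and 22.5% of all probe sets tested. Pollen against sporophytic tissues turned with hybridisation controls (12, 0 higher), the same median (8, 1 higher), poly-A controls (7, 2 higher) and an offset of 100 (5, 2 higher), and was 14 after quantile normalization. Without the fold limit the counts were 17 in TCP against BCP, 18 in MPG against TCP, 10 in UNM against callus and 26 in pollen against sporophytic tissues. The cause of these shifts was not tested. Leaving out 1 array gave 16 to 18 in BCP against UNM, 11 to 14 in TCP against BCP, 10 to 15 in MPG against TCP, 3 to 11 in GPG against MPG, 21 to 23 in TCP against UNM, 4 to 7 in UNM against callus, 24 to 25 in callus against leaf, 11 to 12 in callus against root, 20 in root against leaf and 8 to 10 in pollen against sporophytic tissues. Of single members MCM5 in MPG against TCP turned to −0.0108 with poly-A controls, and PCNA in UNM against callus, which had not passed, to −0.37 (hybridisation controls), −0.0595 (same median) and −0.0924 (quantile), and ran from −0.0065 (without callus replicate 1) to 0.247 (without callus replicate 2) with 1 array left out. Deviations of same-numbered arrays had r from −0.05 to 0.18 over 84 pairs (median 0.03, 7 over 0.1), with the own number best in 50. For number 3 all 28 were positive and best with their own number, a hint from the data, against 15 of 28 best for number 1 and 7 for number 2. Not every pair passed 0.1, and the labels state no pairing, so the samples were not treated as paired. With the replicate block the counts were 18, 11, 10, 5, 22, 5, 26, 12, 21 and 9 in the order BCP-UNM, TCP-BCP, MPG-TCP, GPG-MPG, TCP-UNM, UNM-callus, callus-leaf, callus-root, root-leaf and pollen-sporophytic, equal to those without it. MAS5 values carry no count of molecules, and no detection calls were used, so values under 100 have no firm order.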
